A study of Mus musculus with 6 samples.

Results

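The 43 genes described here copy DNA before a cell divides or carry the cell through mitosis, and they were picked by name from the 18749 gene rows of 6 aortic RNA libraries. All 43 names had a row in every library. By textbook role, 19 of them serve DNA replication and the entry into S phase (replication members) and 24 serve late S phase, G2, mitosis and cytokinesis (mitosis members). Whole aortas came from Apoe-/- mice, which lack apolipoprotein E, after a 28-day infusion of angiotensin II (Ang II), a peptide hormone that raises blood pressure and provokes aneurysms in this strain. In 3 mice the transplanted bone marrow was Apoe-/- (control recipients, libraries called controls 1, 2 and 3), and in 3 it was Apoe-/-Sept2C111A, whose septin-2 by its name carries a cysteine exchanged for alanine (Sept2C111A recipients 1, 2 and 3). Every host lacked Apoe and every host received Ang II, so no library shows an untreated or an Apoe-competent aorta. The change in septin-2 sits only in cells that descend from the donor marrow, while smooth muscle, endothelium and fibroblasts of the wall keep the host genotype. The labels used here do not say how far host blood cells were replaced, nor how old the mice were.

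A dividing cell first loads 6 MCM proteins as a ring on each replication origin, with the help of CDC6 and CDT1, and then opens the ring into a working helicase. Cyclin E releases E2F transcription factors from the retinoblastoma protein, and E2F drives the genes of origin loading, nucleotide supply and the replication fork. Later, cyclins A and B with the kinase CDK1 bring the cell into mitosis, under genes that the factors B-MYB and FOXM1 switch on together with the MuvB complex. In a healthy adult aorta most cells rest outside the cycle, and in injured walls smooth muscle cells, fibroblasts, endothelial cells and macrophages can all re-enter it.

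The libraries held from 17082719 to 20494928 expected counts, and the members together took from 0.0418% of them in Sept2C111A recipient 3 to 0.152% in control 3. The lowest member count in any library was 18 and the highest 2220. Smooth muscle markers were read in every library, as a wall of aorta should give, but their sum differed between libraries: it was 5698 CPM (a gene's count scaled to the library's total over all rows) in control 3 and between 16314 and 22522 CPM in the other 5. Control 1 held 2825 CPM of neutrophil markers against 88.6 and 327 CPM in controls 2 and 3. Nothing in the labels says that samples of a group were collected or processed apart, and the design text gives 3 mice per group. In whole tissue, fewer dividing cells and less of a transcript per dividing cell cannot be told apart.

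Promoters of the 2 classes are known for different motifs, and their windows are shown first because the values below also part the classes. RefSeq windows (build GRCm38.p6, 250 bases before and 50 after the start) were found for 36 members, 16 of replication and 20 of mitosis. An E2F core (the letters TTCCCGC, the variant with TTGGCGC, that with TTCGCGC or that with TTGCCGC, on both strands) lay in the window of 10 of 16 replication members (62.5%) and 4 of 20 mitosis members (20.0%), against 10.9% of all 27025 genes with a window. The core of the cell cycle homology region (CHR, the letters TTTGAA or the variant TTCGAA, both strands), to which MuvB binds, lay in 3 of 16 replication members (18.8%) and 16 of 20 mitosis members (80.0%), against 21.7% of all genes. The CCAAT box (both strands), the site of the factor NF-Y, lay in 10 and 17 of them (62.5% and 85.0%), against 41.1%. An E2F core read as its reverse strand can share letters with a CCAAT box or with another E2F core on the other strand, and such overlaps were counted for each motif. A match is a description of letters and no evidence of binding in these aortas.

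**Figure D1:**
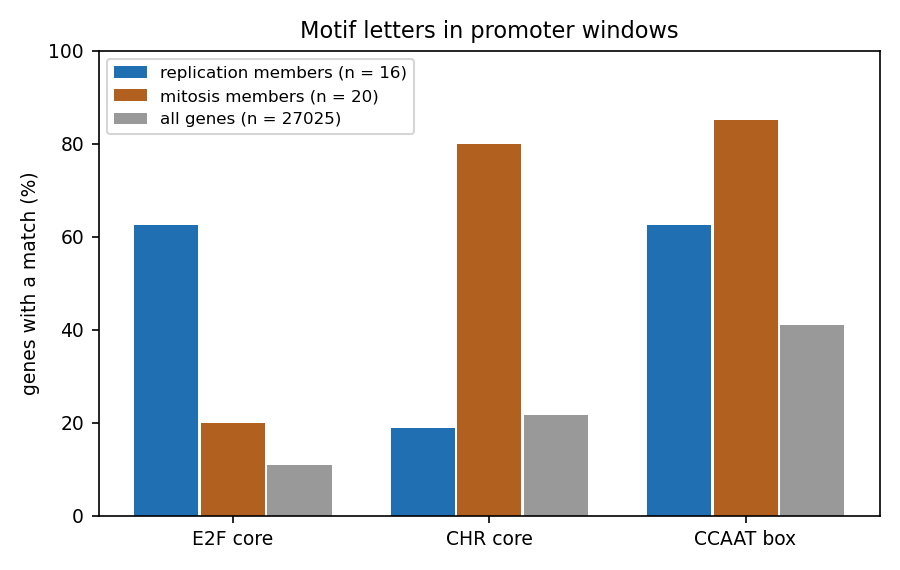
Share of genes, in percent, whose RefSeq promoter window held at least 1 match to the E2F core, the CHR core or the CCAAT box, for replication members (n = 16), mitosis members (n = 20) and all genes with a window (n = 27025). The E2F core was found in 62.5% of replication and 20.0% of mitosis members, and the CHR core in 18.8% and 80.0%.

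The windows below show the contrast in letters, 3 of them from replication and 3 from mitosis members, and are cut here to the 250 bases before the start, which touch no exon of GENCODE vM21. Capitals mark every match to any of these motifs. Mcm5 (plus strand, chr8:75109259-75109508), Mcm6 (minus strand, chr1:128359706-128359955) and Chaf1a (plus strand, chr17:56040166-56040415) hold 3, 4 and 2 E2F cores in this stretch and no CHR core. Ccnb2 (minus strand, chr9:70421555-70421804), Top2a (minus strand, chr11:99024190-99024439) and Mki67 (minus strand, chr7:135716380-135716629) hold 1, 4 and 2 CHR cores and 3, 6 and 3 CCAAT boxes, and Mki67 has 1 E2F core as well.
Mcm5: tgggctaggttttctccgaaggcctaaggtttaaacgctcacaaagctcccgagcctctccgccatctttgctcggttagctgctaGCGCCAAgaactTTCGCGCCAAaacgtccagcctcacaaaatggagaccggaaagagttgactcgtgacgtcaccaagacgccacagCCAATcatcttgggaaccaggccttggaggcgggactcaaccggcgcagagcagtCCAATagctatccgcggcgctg
Mcm6: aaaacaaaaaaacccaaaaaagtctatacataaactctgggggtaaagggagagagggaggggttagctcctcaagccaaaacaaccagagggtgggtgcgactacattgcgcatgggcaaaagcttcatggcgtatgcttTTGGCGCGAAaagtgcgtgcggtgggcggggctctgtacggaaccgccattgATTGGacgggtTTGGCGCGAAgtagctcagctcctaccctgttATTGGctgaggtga
Chaf1a: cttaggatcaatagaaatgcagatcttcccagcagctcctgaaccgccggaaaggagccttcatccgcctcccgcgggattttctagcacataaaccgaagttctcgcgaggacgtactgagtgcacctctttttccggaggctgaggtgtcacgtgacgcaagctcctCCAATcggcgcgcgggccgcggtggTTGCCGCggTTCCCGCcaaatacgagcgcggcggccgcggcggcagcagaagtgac
Ccnb2: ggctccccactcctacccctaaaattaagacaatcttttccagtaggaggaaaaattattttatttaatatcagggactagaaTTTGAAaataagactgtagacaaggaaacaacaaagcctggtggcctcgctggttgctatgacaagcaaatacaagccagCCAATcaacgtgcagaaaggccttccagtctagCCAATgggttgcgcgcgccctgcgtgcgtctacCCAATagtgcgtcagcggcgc
Top2a: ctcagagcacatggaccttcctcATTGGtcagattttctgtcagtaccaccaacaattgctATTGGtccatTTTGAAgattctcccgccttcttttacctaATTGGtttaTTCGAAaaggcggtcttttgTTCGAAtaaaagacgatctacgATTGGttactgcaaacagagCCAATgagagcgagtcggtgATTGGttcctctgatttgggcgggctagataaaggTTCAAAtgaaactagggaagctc
Mki67: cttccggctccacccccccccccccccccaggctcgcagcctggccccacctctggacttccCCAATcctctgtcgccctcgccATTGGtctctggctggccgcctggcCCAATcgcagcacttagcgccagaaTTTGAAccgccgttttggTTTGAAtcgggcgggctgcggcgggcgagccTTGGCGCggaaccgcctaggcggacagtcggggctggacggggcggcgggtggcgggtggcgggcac

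Set against control recipients, every one of the 43 members had a log2 fold change below 0 in Sept2C111A recipients, where 49.9% of the 14466 genes tested did. Log2 fold changes are edgeR's, Sept2C111A minus control recipients, and are given ± SE below. They ran from -1.86 for Ccnb1 to -0.09 for Mcm6, with a median of -1.24 against 0.00 over all genes tested. No member passed edgeR's quasi-likelihood test after Benjamini-Hochberg adjustment over all genes (background 0% of genes), and the adjusted p of members ran from 0.316 to 0.836. At an unadjusted p under 0.05, 12 members were lower, 27.9% of them, against a background of 8.83% of all genes. That count was 27 by DESeq2, where the background was 10.7%. Leaving out 1 library at a time in the edgeR fit moved it to 27 without control 1 (background 8.00% of the genes in that fit) and 37 without Sept2C111A recipient 2 (7.01%). It was 8 without control 2 (11.7%), 6 without control 3 (6.94%), 5 without Sept2C111A recipient 1 (4.98%) and 5 without Sept2C111A recipient 3 (3.63%). DESeq2 called 4 members lower at an adjusted p under 0.05, Mcm2, Ccne1, Mcm5 and Cdt1, which is 9.30% of the members against a background of 2.80%. All 4 are replication members. With 1 library left out at a time, DESeq2 called Mcm2 in 3 of 6 fits, Ccne1 in 2 and Mcm5 and Cdt1 in 1 each. Mitosis members were called in these fits too, among them Ccnb1, Cdk1, Plk1 and Mki67 in 1 each. DESeq2 called 0 members without control 3, without Sept2C111A recipient 1 or without Sept2C111A recipient 3, and 20 without Sept2C111A recipient 2 (background 2.79%).

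The classes differed in how far the libraries of a group lay apart. Among replication members the 3 Sept2C111A recipients lay wholly below the 3 controls for 10 of 19 genes (52.6%), against a background of 11.2% of all genes. Among mitosis members this held for 0 of 24. Without control 1, or without Sept2C111A recipient 2, the groups of 38 of the 43 members did not overlap, where the background with 5 libraries was 17.3% and 15.4% of all genes. Yet the mitosis members had the larger fold changes: 23 of 24 were at least 2-fold lower, against 8 of 19 replication members (background 7.70% of all genes). Their median log2 fold change was -1.47, and that of replication members -0.83. Both medians rested in part on single libraries. Without control 3 the mitosis median was -0.80 and 4 mitosis members in place of 23 were at least 2-fold lower (background 6.19%), and without Sept2C111A recipient 2 the mitosis median was -2.31. The replication median was -0.57 and -1.18 in those fits. No test of the difference between the classes was made, since the members share their libraries and were chosen with results of these data known.

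**Figure D2:**
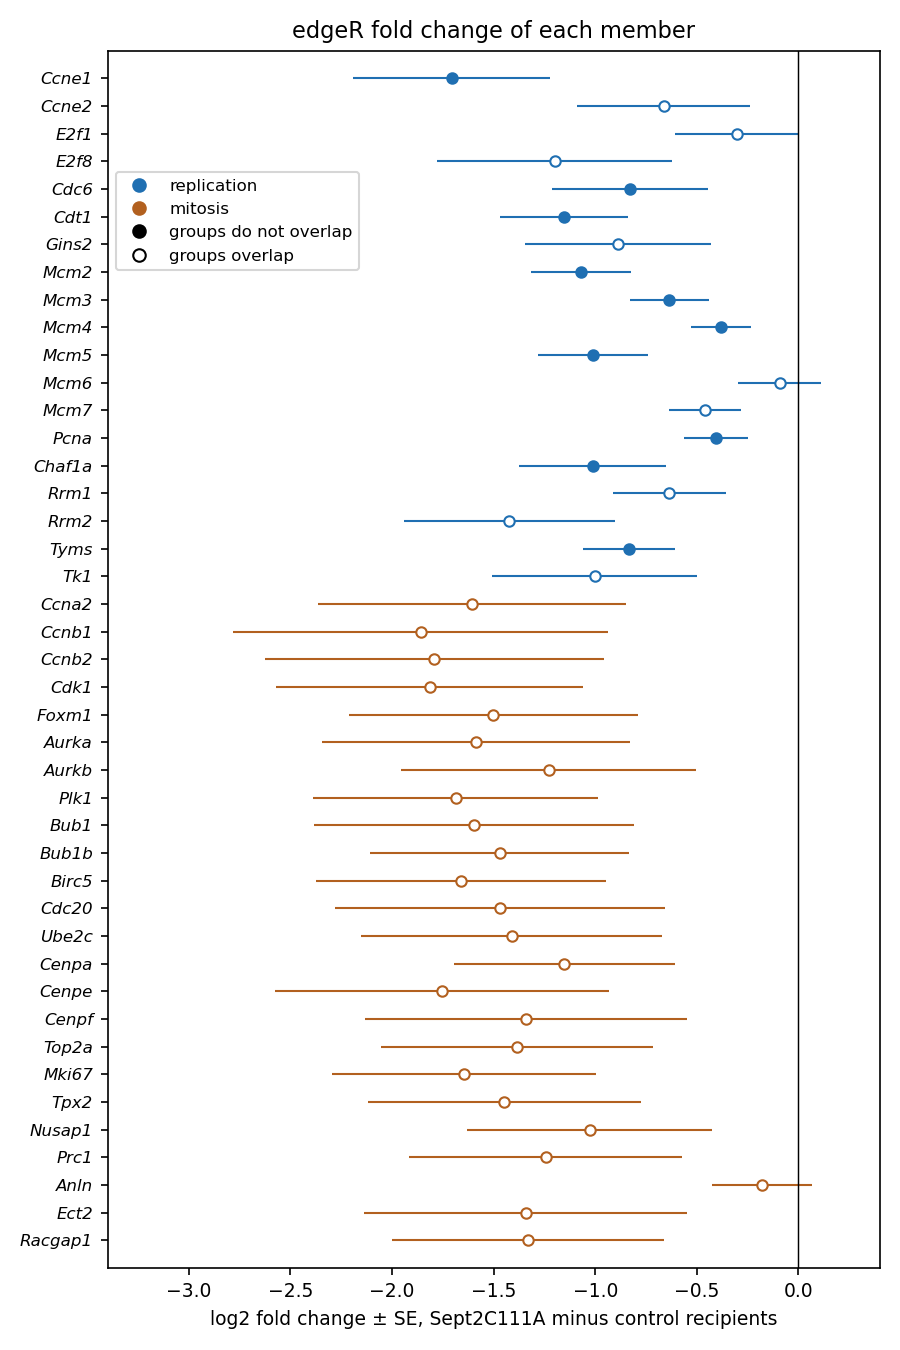
Log2 fold change (Sept2C111A minus control recipients, edgeR, x axis) with its SE for each of the 43 members (y axis), replication members in blue and mitosis members in orange; filled points mark genes whose groups do not overlap in CPM. All points lie below 0, the 10 filled ones are replication members, and the bars of the mitosis members other than Anln are mostly wider.

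The 6 MCM ring subunits had a median range of 1.92-fold over the libraries, near the 1.84-fold of all genes tested. Mcm3, Mcm2 and Mcm5 lay above both at 2.08-fold, 3.02-fold and 3.18-fold. Mcm2 (chromosome 6, 88883474 to 88898780, mm10) stood at 14.5, 17.7 and 24.5 CPM in controls 1, 2 and 3 and at 9.16, 10.2 and 8.14 CPM in Sept2C111A recipients 1, 2 and 3. The lowest control exceeded the highest Sept2C111A recipient by 1.41 times, and the log2 fold change was -1.07 ± 0.25 (edgeR adjusted p = 0.316, DESeq2 adjusted p = 0.0142). Mcm5 (chromosome 8, 75109569 to 75128439), another of the ring's 6 subunits, stood at 17.4, 19.8 and 26.7 CPM and at 10.2, 13.6 and 8.40 CPM in the same order, with a log2 fold change of -1.01 ± 0.27 (edgeR adjusted p = 0.316, DESeq2 adjusted p = 0.0437). Mcm3, at 23.3, 23.8 and 33.8 CPM against 16.2, 19.3 and 17.8 CPM, and Mcm4, at 26.1, 25.8 and 29.96 CPM against 19.2, 23.5 and 21.7 CPM, also had groups that did not overlap. Their log2 fold changes were -0.63 ± 0.20 and -0.38 ± 0.15, and neither was called by edgeR or DESeq2. Mcm7 reached 22.7, 29.4 and 35.4 CPM and 22.1, 20.1 and 23.01 CPM, and its groups overlapped by the small margin between control 1 and Sept2C111A recipient 3.

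Mcm6 was apart from its partners. It stood at 61.98, 75.7 and 71.9 CPM in controls and 70.3, 78.6 and 51.2 CPM in Sept2C111A recipients, so that recipient 2 held the highest level of all 6 libraries. The log2 fold change was -0.09 ± 0.20, and it turned to 0.10 without Sept2C111A recipient 3. Per kilobase of annotated exon, Mcm6 was also the subunit of highest level, at 14.97 CPM per kb in controls against 7.60 for Mcm4, 7.18 for Mcm3, 6.59 for Mcm7, 5.33 for Mcm5 and 2.72 for Mcm2. In Sept2C111A recipients these levels were 14.3, 5.98, 4.73, 4.91, 2.69 and 1.32 CPM per kb in the same order of genes. The exon lengths join all annotated isoforms, so the order rests on that annotation. Of the 6 subunits, 5 were lower at an unadjusted p under 0.05 by edgeR (83.3%, background 8.83% of all genes), Mcm6 being the exception.

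Genes that load and fire the ring had similar values. Cdt1 (chromosome 8, 122568015 to 122573554), which brings the MCM ring to the origin, stood at 4.87, 4.96 and 8.83 CPM in controls 1, 2 and 3 and at 2.68, 2.88 and 3.04 CPM in Sept2C111A recipients. Its 3 Sept2C111A recipients lay close together, with an SD of 0.184 CPM, all below the lowest control, and the log2 fold change was -1.15 ± 0.32 (edgeR adjusted p = 0.316, DESeq2 adjusted p = 0.0463). Cdc6, the ATPase that works beside CDT1, was nearly level among controls at 5.85, 6.60 and 5.86 CPM and stood at 3.91, 4.64 and 1.87 CPM in Sept2C111A recipients, and its log2 fold change was -0.83 ± 0.38. Gins2, a subunit of the complex that activates the helicase, was at 4.53, 7.73 and 11.3 and 3.54, 6.34 and 2.97 CPM with overlapping groups. Its exons share 67.3% of their bases with those of the antisense gene Gse1, so without a stated strand setting its counts are uncertain.

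At the fork, Pcna, the sliding clamp that holds DNA polymerase, stood at 89.00, 72.3 and 88.2 CPM in controls and 60.3, 71.2 and 61.3 CPM in Sept2C111A recipients. The groups did not overlap, but control 2 and Sept2C111A recipient 2 differed by a factor of only 1.01. Its log2 fold change was -0.41 ± 0.16 (edgeR adjusted p = 0.326). Chaf1a, the large subunit of the chaperone that lays histones on new DNA, was at 10.02, 12.3 and 21.1 CPM against 6.80, 9.39 and 5.68 CPM, with a log2 fold change of -1.01 ± 0.36. Its exons share 52.5% of their bases with the antisense gene Ubxn6.

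Deoxynucleotides are supplied by the ribonucleotide reductase subunits Rrm1 and Rrm2, by thymidylate synthase (Tyms) and by thymidine kinase 1 (Tk1). Tyms stood at 22.6, 23.7 and 32.4 CPM in controls and 14.03, 18.1 and 12.9 CPM in Sept2C111A recipients and was the one of the 4 whose groups did not overlap, with a log2 fold change of -0.83 ± 0.23 (edgeR adjusted p = 0.316, DESeq2 adjusted p = 0.0593). Rrm2, the subunit that cells make mainly in S phase, varied far more, at 11.2, 17.9 and 27.9 CPM against 5.09, 11.9 and 4.39 CPM, and Sept2C111A recipient 2 lay above control 1. Its partner Rrm1 was at 38.3, 56.9 and 77.8 CPM and 33.2, 44.8 and 35.6 CPM. The log2 fold changes of Rrm2, Tk1 and Rrm1 were -1.42 ± 0.52, -1.004 ± 0.50 and -0.64 ± 0.28.

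Among the factors of the G1/S switch, Ccne1 (chromosome 7, 38097984 to 38107534), which encodes cyclin E1, had the largest fold change of the replication members. It stood at 3.57, 5.23 and 8.64 CPM in controls and 1.55, 2.67 and 1.17 CPM in Sept2C111A recipients, and its log2 fold change was -1.71 ± 0.48 (edgeR adjusted p = 0.316, DESeq2 adjusted p = 0.0412). Ccne2, which encodes cyclin E2, was at 4.34, 5.82 and 7.68 CPM and 2.57, 5.87 and 2.95 CPM, with Sept2C111A recipient 2 above control 2, and a log2 fold change of -0.66 ± 0.43. E2f1, an activating E2F, was at 8.47, 11.9 and 15.4 and 10.02, 11.95 and 7.45 CPM, with a log2 fold change of -0.30 ± 0.30, while E2f8, an E2F that represses, was at 2.87, 3.96 and 8.002 and 2.09, 3.36 and 1.05 CPM, with -1.20 ± 0.58. The groups of E2f1, E2f8 and Ccne2 overlapped.

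The mitosis members varied together across the libraries. In 20 of 24 of them (83.3%) the libraries fell in a single order, control 3 highest, then control 2, Sept2C111A recipient 2, control 1, Sept2C111A recipient 1 and Sept2C111A recipient 3, an order that 4 of 19 replication members and 1.07% of all genes tested shared. Sept2C111A recipient 2 lay above control 1 in all 24, against 8 of 19 replication members and 49.5% of all genes, so that no mitosis member had separate groups. Control 3 held the highest level of 39 of the 43 members (23.6% of all genes) and Sept2C111A recipient 3 the lowest of 35 (13.0% of all genes).

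**Figure D3:**
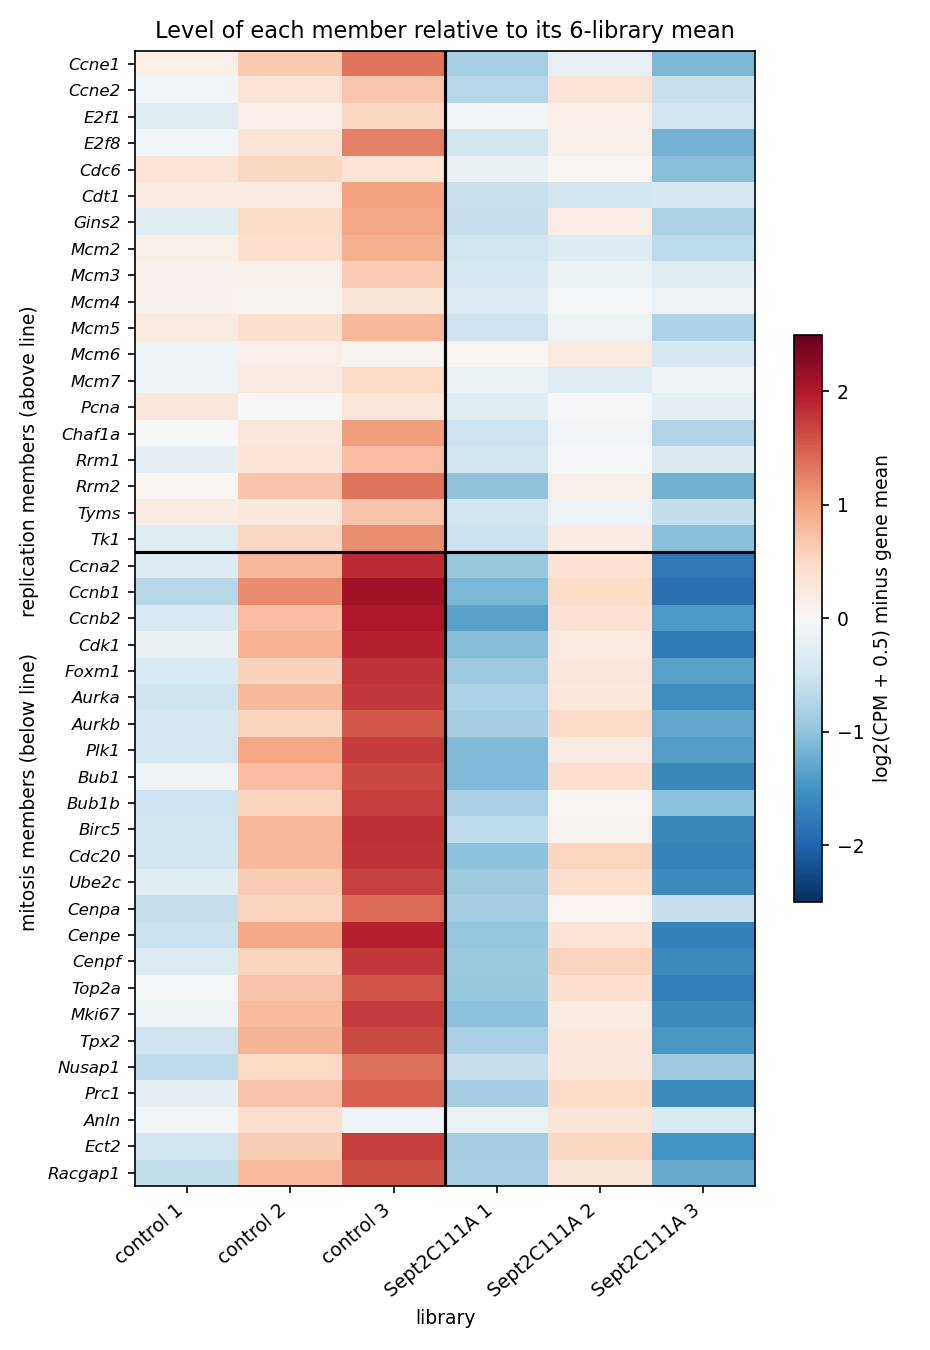
Log2(CPM + 0.5) of each member (rows) in each library (columns), less the gene's mean over the 6 libraries; red is above and blue below that mean, the horizontal line parts replication from mitosis members and the vertical line parts the marrow groups. Control 3 is the reddest and Sept2C111A recipient 3 the bluest column, and Mcm6 and Anln are pale throughout.

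Cyclins A and B, their kinase and FOXM1 varied widely, with a median range of 13.7-fold over the libraries. Ccnb1 (chromosome 13, 100778650 to 100786570), cyclin B1, stood at 4.44, 17.6 and 33.6 CPM in controls 1, 2 and 3 and at 3.11, 10.5 and 1.70 CPM in Sept2C111A recipients 1, 2 and 3, a 19.8-fold range over the 6 libraries. Its log2 fold change of -1.86 was the largest of all members, but its SE was 0.92 (edgeR adjusted p = 0.371). Cdk1, the kinase that cyclin B activates, was at 8.66, 18.7 and 39.2 CPM and 4.44, 11.9 and 2.58 CPM, with a log2 fold change of -1.81 ± 0.76. Ccnb2 and Ccna2, cyclins B2 and A2, had log2 fold changes of -1.79 ± 0.83 and -1.61 ± 0.76. Foxm1, the factor that drives mitotic genes, was at 7.74, 15.5 and 37.4 CPM against 5.24, 12.5 and 3.69 CPM, with a log2 fold change of -1.50 ± 0.71. In all 5 genes Sept2C111A recipient 2 lay above control 1, so the groups overlapped.

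Mki67, which encodes the Ki-67 antigen that stains cycling cells in tissue sections, was the single mitosis member lower at an unadjusted p under 0.05 by edgeR. That is 4.17% of the 24 mitosis members, below the background of 8.83% of all genes. By DESeq2 16 of the 24 were lower at that threshold, where the background was 10.7%. Mki67 stood at 29.6, 54.9 and 108 CPM in controls and at 15.3, 36.5 and 10.1 CPM in Sept2C111A recipients, with recipient 2 above control 1. Its log2 fold change was -1.65 ± 0.65 (edgeR adjusted p = 0.329, DESeq2 adjusted p = 0.125). Top2a, the topoisomerase that untangles sister chromosomes, was at 30.1, 51.9 and 93.4 CPM and 15.96, 42.2 and 9.19 CPM, with a log2 fold change of -1.38 ± 0.67.

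The kinases and checkpoint genes of the spindle lay close to one another, with log2 fold changes from -1.69 to -1.23. Plk1, polo-like kinase 1, was at 6.55, 17.8 and 31.2 CPM in controls and 3.91, 10.3 and 3.10 CPM in Sept2C111A recipients. Aurka and Aurkb, the Aurora kinases of the spindle pole and of the centromere, had log2 fold changes of -1.59 ± 0.76 and -1.23 ± 0.73. Birc5, survivin, which works with Aurora B, and the checkpoint kinases Bub1 and Bub1b were at -1.66, -1.59 and -1.47 on the same scale. Cdc20, which turns on the anaphase-promoting complex, and Ube2c, the enzyme that hands it ubiquitin, were at -1.47 ± 0.81 and -1.41 ± 0.74. In each of these 8 genes control 3 was highest and Sept2C111A recipient 3 lowest.

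Centromere and spindle proteins ranged from 5.11-fold (Cenpa) and 5.37-fold (Nusap1) to 15.7-fold (Cenpe) over the libraries. Cenpe, a kinesin of the kinetochore, was at 4.66, 13.9 and 28.5 CPM and 3.32, 8.81 and 1.81 CPM, and Cenpf, a kinetochore protein, had a log2 fold change of -1.34 ± 0.79. Cenpa, the histone variant that marks the centromere, was at 7.25, 16.6 and 30.4 CPM against 5.94, 11.5 and 7.26 CPM, and was lowest in Sept2C111A recipient 1. Tpx2, which starts spindle microtubules, Nusap1, which bundles them, and Prc1, which crosslinks the midzone, had log2 fold changes of -1.45 ± 0.67, -1.03 ± 0.60 and -1.24 ± 0.67.

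In cytokinesis, ECT2 and the protein of Racgap1 together switch on RhoA at the cell's equator, and anillin (Anln) ties the contractile ring to septins. Ect2 was at 3.95, 8.92 and 19.9 CPM in controls and 2.89, 8.33 and 1.70 CPM in Sept2C111A recipients, and Racgap1 at 8.66, 23.4 and 41.5 CPM and 7.35, 16.7 and 5.35 CPM, with log2 fold changes of -1.34 ± 0.79 and -1.33 ± 0.67. Anln (chromosome 9, 22332012 to 22389188) did not follow them. Its levels were 69.02, 95.7 and 66.95 CPM in controls and 64.3, 88.6 and 55.01 CPM in Sept2C111A recipients, a 1.74-fold range in which control 3 was no higher than control 1, and its log2 fold change was -0.18 ± 0.25. Per kilobase of exon, Anln stood at 8.52 CPM per kb in controls, against 2.03 for Ect2 and 3.47 for Racgap1.

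Mean levels over each class put these values on a single scale. For every gene, log2(CPM + 0.5) was taken relative to its mean over the 6 libraries and averaged over the class. Replication members stood at 0.02, 0.33 and 0.77 in controls 1, 2 and 3. Their level was -0.45, -0.02 and -0.64 in Sept2C111A recipients 1, 2 and 3. The groups did not overlap, by the small gap between control 1 and Sept2C111A recipient 2. Mitosis members had a level of -0.39, 0.73 and 1.65 in the controls, against -0.90, 0.33 and -1.43 in the Sept2C111A recipients, where the groups overlapped. The difference of the group means was -0.74 for replication members and -1.33 for mitosis members, and the SD within groups was 0.38 and 0.32 for the former and 1.02 and 0.90 for the latter, controls first.

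The mitosis level less the replication level, taken within each library, was -0.41, 0.41 and 0.88 in controls and -0.45, 0.35 and -0.79 in Sept2C111A recipients. Its mean was 0.29 ± 0.65 (SD, n = 3) in controls and -0.29 ± 0.58 (SD, n = 3) in Sept2C111A recipients. The difference of -0.59 was smaller in size than the SD of controls and about equal to that of Sept2C111A recipients. The ratio was high where both classes were high, in control 3, and low where both were low, in Sept2C111A recipient 3. Over the 6 libraries the median range of a mitosis member was 11.2-fold and that of a replication member 3.02-fold, against 1.84-fold for all genes tested.

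**Figure D4:**
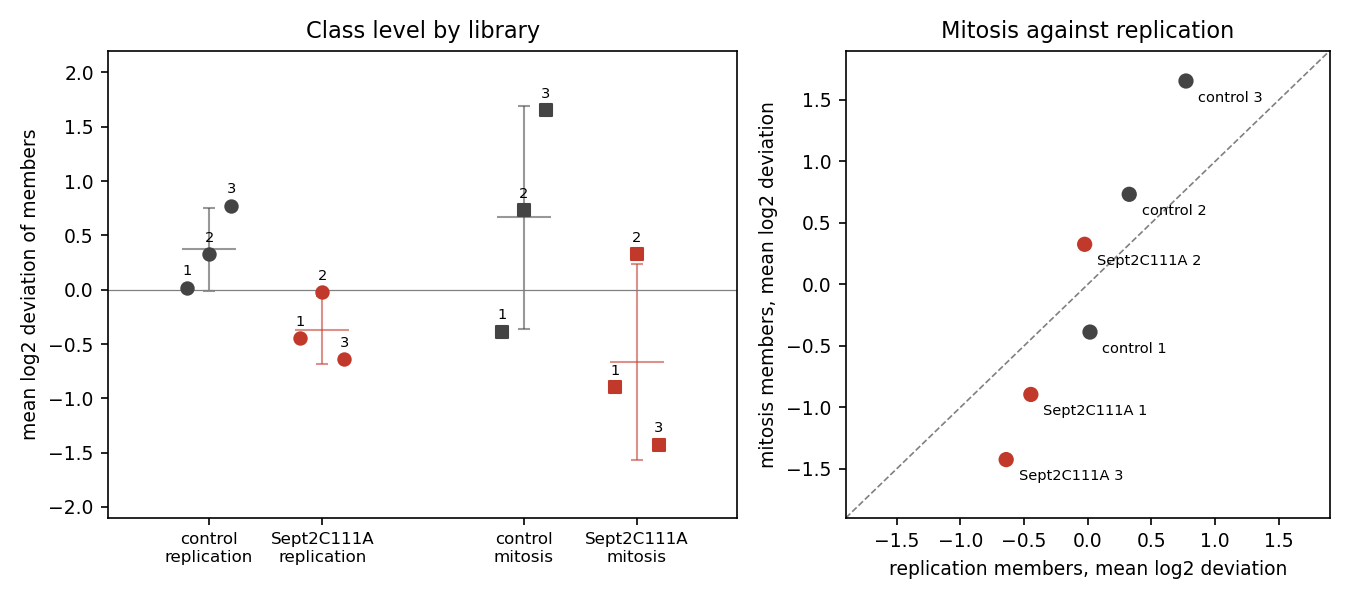
Left, mean log2 deviation of replication and mitosis members (y axis) in each library, numbered as in the labels, with the mean and SD of each group as bars. Right, the mitosis value against the replication value of each library (controls grey, Sept2C111A recipients red) with a dashed line of equality; the 6 libraries run from Sept2C111A recipient 3 at the lower left to control 3 at the upper right, and control 1 and Sept2C111A recipient 2 are level for replication and apart for mitosis.

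Markers of the cells that could carry these transcripts differed between the libraries too, and their part in the result was not tested. Summed macrophage markers (all 7 read in every library) ran from 768 to 1613 CPM in controls and from 919 to 1289 CPM in Sept2C111A recipients. Control 3, highest for most members, was highest here as well. Among Sept2C111A recipients, recipient 1 held 1289 CPM and recipient 2 held 951 CPM. Recipient 2 was the highest of its group for 41 of the 43 members (24.6% of all genes). Summed smooth muscle markers (7 of 7) ran from 5698 to 18334 CPM and from 16364 to 22522 CPM, with control 3 lowest. Adventitial fibroblast markers (7 of 7) were at 3023 to 3674 CPM in controls and at 5052 to 7613 CPM in Sept2C111A recipients, and endothelial markers (6 of 6) at 632 to 1165 and 537 to 1326 CPM. Neutrophil markers (6 of 7 read in every library, Ly6g at 0 in some) were at 88.6 to 2825 CPM and 15.3 to 29.3 CPM, and B cell markers (5 of 5) at 9.45 to 31.9 and 2.17 to 8.25 CPM. T cell markers (5 of 5) were at 5.76 to 9.90 and 3.99 to 9.70 CPM, also with control 3 highest. Adipocyte markers (5 of 5) were at 154 to 488 and 378 to 1069 CPM. Markers of granulocyte precursors, which divide in marrow, were near 0: of 5 with a row, Mpo, Elane, Ctsg and Fcnb were each at 0 in some libraries, and the sum was at most 2.68 CPM.

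The rest of the cell cycle machinery was followed in 8 further lists of 173 genes, listed by textbook role. Of these, 148 had a log2 fold change below 0 (85.5%), the median was -0.71, and edgeR and limma-voom called 0 at an adjusted p under 0.05. At an unadjusted p under 0.05, 38 were lower (22.0%, background 8.83%) and 2 were higher, where 892 of all 14466 genes tested were higher. These 2 were Pttg1 and Tfdp2, a partner subunit of E2F factors. Spindle, kinesin and kinetochore genes resembled the mitosis members, with 38 of 38 below 0, a median of -1.29 and 28 at least 2-fold lower. Genes of replication stress and homologous repair had a median of -0.83 with 12 of 15 below 0, and other genes of mitotic entry and exit a median of -1.11 with 30 of 33. Other licensing genes had a median of -0.34 with 18 of 20 below 0, and fork polymerases and factors -0.34 with 22 of 25. The median was -0.50 for condensin, cohesin and segregation genes (12 of 17 below 0), -0.32 for G1 cyclins, kinases, RB and E2F genes (14 of 20) and 0.12 for the MuvB complex (3 of 7).

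DESeq2 called 6 of the 173 genes lower, which is 3.47% and near the background of 2.80%. It called 1 higher, where 142 of all 14466 genes tested were called higher. These calls were not repeated without single libraries. Chek1, the kinase that restrains cells with stalled forks, stood at 5.58, 4.91 and 6.68 CPM in controls and 2.195, 2.75 and 1.93 CPM in Sept2C111A recipients (log2 fold change -1.35, SE 0.28, DESeq2 adjusted p = 0.00341, edgeR adjusted p = 0.316). Brca1, a repair protein, was at 3.52, 4.17 and 8.20 and 1.71, 2.08 and 0.995 CPM. Cdk6, a G1 kinase, was at 41.7, 43.4 and 46.5 and 32.97, 30.7 and 32.5 CPM, and Myc, the growth-promoting factor, at 35.6, 16.4 and 31.96 and 12.8, 10.9 and 10.9 CPM. Cks2, a CDK1 subunit, and Cdc7, the kinase that fires origins, had log2 fold changes of -1.70 ± 0.44 and -0.71 ± 0.21. The gene called higher was Pttg1, securin, which holds back chromosome separation until anaphase. It stood at 23.6, 28.8 and 19.3 CPM in controls and at 39.9, 33.5 and 45.6 CPM in Sept2C111A recipients, and its log2 fold change was 0.69 ± 0.18 (DESeq2 adjusted p = 0.0436, edgeR adjusted p = 0.316), and thus ran against the mitosis members with which it acts.

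Inhibitors of the cyclin-dependent kinases did not mirror the members. Of 6 tested, 3 had a log2 fold change below 0 and 3 above, and edgeR and DESeq2 called 0 of them at an adjusted p under 0.05. At an unadjusted p under 0.05 edgeR gave 1, Cdkn2d, which was lower (16.7% of the inhibitors tested, background 8.83% of all genes). Cdkn1a, the inhibitor p21 that p53 induces, was at 198, 156 and 133 CPM in controls and 98.2, 104 and 162 CPM in Sept2C111A recipients, and its log2 fold change was -0.47 ± 0.24. Cdkn1b, p27, was at 0.09 ± 0.14, and Cdkn1c, p57, at 0.96 ± 0.55. Cdkn2c and Cdkn2d, p18 and p19 of the INK4 family, were at 0.45 ± 0.27 and -0.43 ± 0.17. Cdkn2d, at 16.5, 14.2 and 18.4 against 11.6, 12.4 and 13.5 CPM, was the only inhibitor whose groups did not overlap (16.7% of those tested, background 11.2% of all genes). Cdkn2b, p15, stood at 2.44, 4.49 and 16.1 CPM in controls and 2.57, 2.83 and 2.75 CPM in Sept2C111A recipients, so that control 3, the library with the highest level of most members, was also apart from the rest for this inhibitor.

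Septins, filament proteins that surround the contractile ring in cytokinesis, include the gene altered in the donor marrow. Septin2 stood at 278, 331 and 320.0 CPM in controls and 301, 339 and 298 CPM in Sept2C111A recipients, and its log2 fold change was -0.02 ± 0.16. The exchanged amino acid does not appear in a gene count, and Septin2 is also made by host cells, so this level is no check of the donor genotype. Of 11 septins tested, 8 had a log2 fold change below 0, with a median of -0.06. At an adjusted p under 0.05 both edgeR and DESeq2 called 0. At an unadjusted p under 0.05 edgeR gave 0 and DESeq2 gave 1 lower (background 10.7% of all genes). Septin9 and Septin11 had groups that did not overlap, at 218, 226 and 248 against 185, 203 and 158 CPM and at 82.5, 79.2 and 155 against 66.5, 72.96 and 69.7 CPM, with Septin11 highest in control 3. These 2 are 18.2% of the septins tested, against a background of 11.2% of all genes. Septin10 was the only septin whose Sept2C111A recipients all lay above the controls, at 19.4, 22.6 and 24.5 against 28.97, 26.5 and 25.9 CPM. Over all genes tested, 11.4% lay wholly above the controls in this way.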

How the data were processed

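RNA of 6 whole aortas was sequenced after capture on oligo(dT) beads, per the labels' protocols. The authors deposited expected counts per gene for each library, not normalised, and their notes to GEO list RSEM 1.3.1, Bowtie2, build mm10 and DESeq2 1.4.5 (per the submitters' processing notes). The labels name no annotation, strand setting or read filter. RSEM splits reads that match several genes, and 20 of the 43 members had a fractional count in at least 1 library. In GENCODE vM21, the same build, exons of 12 members overlap an antisense gene. Septin rows stored as dates were renamed, since each number occurred once, and 1 file whose heading carried another library number was assigned as GEO records it.

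Counts were rounded and tested with edgeR 4.0.16 under R 4.3.3 (filterByExpr with a minimum count of 10, TMM, two-sided quasi-likelihood F test, group as single factor). All 14466 genes that passed were tested together with Benjamini-Hochberg adjustment, and all 43 members passed that filter. DESeq2 1.42.0 and limma 3.58.1 (voom with library quality weights), other scalings, filters, a replicate block and fits without each library were alternatives, and the procedures were tested on simulated data. There edgeR recovered 3 of 50 genes changed 2-fold and 34 of 50 changed 4-fold, and DESeq2 recovered 17 and 41. Unchanged genes called at an adjusted p under 0.05 numbered 7 by edgeR and 56 by DESeq2. A small change can thus be missed by edgeR, and DESeq2's calls include more false ones. Log2 fold changes are Sept2C111A minus control recipients, with SE from the F value. The members, their classes and the other lists were chosen with earlier results of these data known. All members may be named, every inhibitor and septin, and from other lists those called by a test and the 2 of highest level. Tfdp2 was named after its value was seen. Replicates of a group differed far beyond counting noise (chi-square per degree of freedom 50.2 to 237), so no library repeated another. Promoter windows are from RefSeq. 1 marker list is not reported here.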

Additional observations from a re-analysis of the deposited data

How the results depend on the processing

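The count of genes called over all genes and over the members was 0 under edgeR's other scalings and filters, under limma-voom with quality weights, and in each fit without a library. By DESeq2, 570 genes (some of them outside edgeR's filter) and 4 members were called. With 1 library left out, DESeq2 called from 116 to 1767 genes and from 0 to 20 members: 3 without control 1 (330 genes), 2 without control 2 (1767), 0 without control 3 (339), 0 without Sept2C111A recipient 1 (241), 20 without Sept2C111A recipient 2 (650) and 0 without Sept2C111A recipient 3 (116). The background of all genes called lower in these fits was 1.75%, 6.62%, 1.71%, 1.42%, 2.79% and 0.622% in the same order. Those fits and the counts at an unadjusted p were added after seeing the data. Members with a log2 fold change below 0 numbered 43 in every setting except without Sept2C111A recipient 3, where they numbered 42 and Mcm6 turned to 0.10 (from -0.26 to 0.10 over fits without 1 library). Library totals without further scaling shifted the median of all genes by 0.04.

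Across fits without 1 library, the replication median ran from -1.18 to -0.57, the mitosis median from -2.31 to -0.80, and their difference from -1.13 to -0.24 (-0.64 with all libraries). Members with separate groups numbered 38 without control 1, 38 without Sept2C111A recipient 2 (17.3% and 15.4% of all genes) and 10 or 11 otherwise (14.2% to 17.9%). Members lower at an unadjusted p under 0.05 ran from 5 to 37 (background 3.63% to 11.7% of genes), against 12 with all libraries (8.83%), 27 by DESeq2 (10.7%) and 38 by limma-voom (7.70%), and the replication members among them from 5 to 16, against 11. Members at least 2-fold lower ran from 6 to 35 (background 6.19% to 10.1%), against 31 (7.70%), and the mitosis members among them from 4 to 23, against 23; each minimum was without control 3. With the replicate number as a block, the counts at an unadjusted p were 7 and 7 (background 6.01%), the medians -0.88 and -1.43, and called members 0. Same-numbered libraries correlated at 0.02, 0.12 and -0.17 in their deviations from the group means, and not every library correlated best with its own number. No pairing by number was seen, though 3 libraries per group cannot exclude it. The lowest member count was 18.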

Other observations

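Cdkn2a, which encodes the inhibitors p16 and p19ARF and was too low for the test, had 5, 15 and 176 counts in controls 1, 2 and 3 and 4, 6 and 1 counts in Sept2C111A recipients 1, 2 and 3. Control 3, which held the highest level of 39 of the 43 proliferation genes, thus also held most reads of this inhibitor, which is known to mark senescent cells, and of its neighbour Cdkn2b. The DESeq2 adjusted p of Cdkn2a between the groups was 0.0501. Cdkn1c, another inhibitor of the cyclin-dependent kinases, stood at 8.50, 12.4 and 23.03 CPM in controls and 22.2, 14.2 and 52.7 CPM in Sept2C111A recipients. Its highest level was in recipient 3, the library lowest for 35 of the 43 genes and highest for 29.5% of all genes tested. Control 3 was the next highest library for Cdkn1c.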
